A study of Mus musculus with 22 samples.

Results

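Granulation tissue of Mmp13-/- mice was compared with that of wild type (WT) mice 7 d after a viscose cellulose sponge had been placed under the dorsal skin. The comparison rests on 6 Affymetrix arrays, 3 of each genotype, out of 22 in the series. The members were chosen by the labels alone: genotype and day of harvest. Both groups were male mice of 5 to 8 weeks and received the same implant. Genotype is the only difference that the labels and methods name, but the sources conflict on the background. The sample labels give the genetic background of every mouse as C57BL/6 x 129 mixed, whereas the series description says that Mmp13-/- mice were backcrossed to C57BL6 for at least 7 generations and that WT mice came from the heterozygotes. The knockout is of the whole animal, not of a cell type. According to the series description each mouse gave 1 sample, so each array stands for 1 animal. All 6 arrays belong to hybridization series 1, labelled from 2 µg of RNA, and the other 16 arrays are of 14 d and 21 d. The question the comparison addresses is which genes are expressed differently in early granulation tissue that lacks MMP-13.

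MMP-13 is a secreted collagenase that cleaves fibrillar collagens and a range of other matrix and non-matrix proteins. It is made by fibroblasts, chondrocytes and osteoblasts, among other cells, and its gene lies in a cluster of MMP genes. Granulation tissue is the provisional tissue of a healing wound, in which macrophages, fibroblasts and sprouting blood vessels grow into a loose matrix that is later replaced by collagen. At 7 d a sponge of this kind is still being invaded, so inflammatory and proliferating cells are both part of what is measured.

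The values are RMA signals on the log2 scale, on which a difference of 1 is a doubling, and differences are given as Mmp13-/- minus WT. The array medians lay between 4.21 and 4.27, and arrays correlated across probe sets at r = 0.984 to 0.994 within a genotype and at 0.981 to 0.994 between genotypes. The tissue carried high signals of fibroblast markers (mean of 12 genes 9.96 to 10.26 on the 6 arrays) and macrophage markers (16 genes, 9.32 to 9.81), and low signals of keratinocyte markers (20 genes, 3.82 to 4.02). Markers of skeletal muscle ran from 5.10 on WT replicate 1 to 9.78 on WT replicate 3, and WT replicate 1 also had the lowest mean for blood vessel endothelium, 5.69 against 6.61 to 7.25 on the other 5 arrays. For vessel, integrin and collagen genes, values without this array are given beside the result.

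Few genes differed beyond the spread between arrays. Of 45037 probe sets tested with limma, 4 passed an adjusted p under 0.05 (0.00888%), of which 1 was higher (0.00222%) and 3 were lower (0.00666%) in Mmp13-/- tissue. They were the probe sets of Mmp13 and Casp4 and 2 probe sets that have no gene name here. At an unadjusted p under 0.05 the count was 975 (2.16%), of which 574 were higher (1.27%) and 401 lower (0.89%). That balance turned without WT replicate 1 (505 higher, 549 lower) and without WT replicate 3 (557 higher, 575 lower). With 1 probe set for each of 18193 genes, 544 genes passed the unadjusted threshold (2.99%), of which 342 were higher (1.88%) and 202 lower (1.11%). Of these, 96 (0.528%) also differed by more than 0.75, and in 54 (0.297%) all 3 Mmp13-/- arrays lay on the same side of all 3 WT arrays. The genotypes did not overlap in 8.77% of all genes, 4.44% with Mmp13-/- above WT and 4.33% below. If no gene differed, a share of about 0.05 would pass the unadjusted threshold and about 0.1 would not overlap. The observed shares were smaller, so neither property sets a single gene apart. The median difference over all genes was 0, and 47.8% of genes had a positive difference. These shares are the background for the counts that follow. The gene lists described below were chosen with earlier results of these data known, so their counts are descriptive only.

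Mmp13 itself fell. Its signal was 11.09, 10.72 and 10.26 on the WT arrays and 8.63, 8.61 and 7.87 on the Mmp13-/- arrays. The groups lay more than 1 log2 unit apart, and the difference was -2.32 (SE 0.30, adjusted p = 0.00573 from limma). Its signal on the Mmp13-/- arrays stayed well above the median probe set mean of 4.22, but the sources do not say whether that probe set falls in the sequence removed from the allele. The call was lost when the 6 arrays were fitted alone (adjusted p = 0.146 from limma) and without Mmp13-/- replicate 3 (adjusted p = 0.0774 from limma).

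Casp4, which encodes an inflammatory caspase that senses cytosolic lipopolysaccharide, also fell. Casp4 read 8.48, 8.42 and 8.52 on the WT arrays and 6.58, 6.81 and 6.83 on the Mmp13-/- arrays. No WT array came near a Mmp13-/- array, and the difference of -1.73 (SE 0.22) had an adjusted p of 0.00573 from limma. Casp4 passed in each alternative run, with an adjusted p of 0.0149 to 0.0495 from limma as single arrays were left out. The difference recurred in the animals of the later days, -1.49 at 14 d (adjusted p = 0.00438 from limma) and -1.38 at 21 d (adjusted p = 0.00504 from limma). WT signals of Casp4 were lower at these days, 7.44 to 7.87 at 14 d and 6.86 to 7.33 at 21 d.

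The other calls were of the unnamed probe sets 1440145_at and 1440188_at. The first rose in Mmp13-/- tissue from 2.47, 2.44 and 2.73 to 5.92, 5.15 and 5.92, a difference of 3.12 (SE 0.42, adjusted p = 0.00573 from limma). At 14 d it differed by 2.55 (adjusted p = 0.00773 from limma) and at 21 d by 0.67. The second fell from 4.19, 5.72 and 5.96 to 2.90, 2.69 and 2.33, a difference of -2.65 (SE 0.39, adjusted p = 0.0177 from limma). Neither probe set overlapped between genotypes, but both are dim: their means over all arrays (3.78 and 3.60) lie under the median of 4.22. The call of 1440188_at was lost with the 6 arrays alone (adjusted p = 0.554 from limma). Without Mmp13-/- replicate 3, Casp4 was the only probe set called, and without Mmp13-/- replicate 1 the calls of both unnamed probe sets were lost. Of the fits without single arrays, 1440188_at was called only in the one without WT replicate 1.

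**Figure D1:**
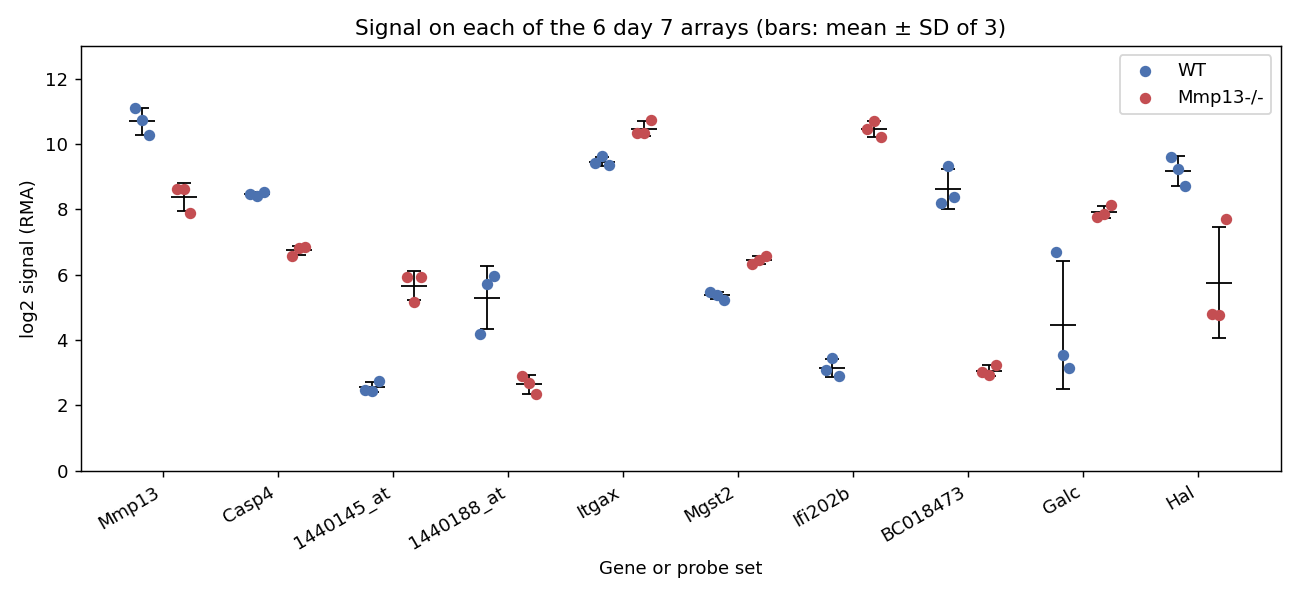
RMA log2 signal (y axis) of 10 genes or probe sets (x axis) on each day 7 array, WT in blue and Mmp13-/- in red, with the mean ± SD of 3 arrays in black. The first 4 were called at an adjusted p under 0.05, and the genotypes do not overlap for any of the 10. For Galc the WT arrays spread from 3.15 to 6.70 and for Hal the Mmp13-/- arrays from 4.76 to 7.71.

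Casp4 lies near Mmp13 on chromosome 9, and the 10 measured genes on each side of Mmp13 were therefore read in order. Apart from Casp4 none of these 20 genes passed the adjusted threshold. At an unadjusted p under 0.05, 3 were higher (Kbtbd3, Mmp12 and Mmp3) and 2 lower (Casp4 and Pdgfd). Over all genes these shares were 1.88% and 1.11%. The genotypes did not overlap in 4, namely Casp4, Pdgfd, Kbtbd3 and Ddi1 (8.77% of all genes). Ddi1 was dim, at 2.50 to 2.79 on the 6 arrays. Pdgfd encodes a ligand of the PDGF receptors. Its signal was 6.12, 5.72 and 4.94 in WT and 4.33, 4.25 and 4.33 in Mmp13-/- tissue, a difference of -1.29 (SE 0.37, adjusted p = 1 from limma) with no overlap. A difference of like size was measured at 14 d (-1.22) and at 21 d (-1.51), but the other 2 Pdgfd probe sets, which are dimmer, differed by -0.37 and -0.02 and overlapped. Casp1 and Casp12, the caspase genes on either side of Casp4, differed by -0.31 (SE 0.25) and 0.14 (SE 0.13) and overlapped between genotypes. The cluster of MMP genes next to Mmp13 spanned -0.55 (Mmp8) to 0.77 (Mmp3).

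**Figure D2:**
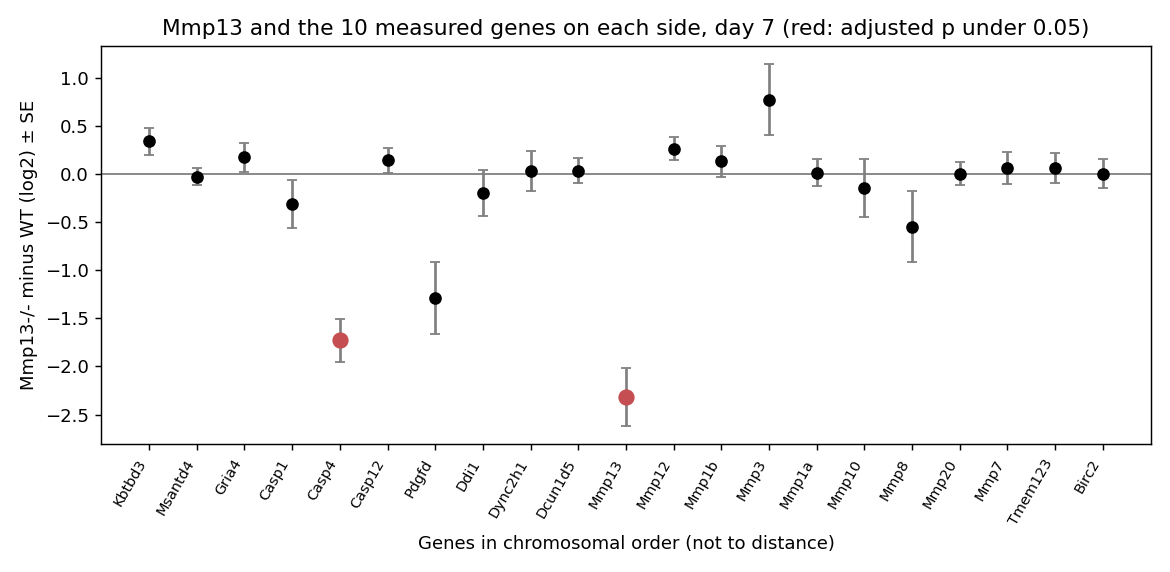
Difference between Mmp13-/- and WT at 7 d in log2 units (y axis, ± SE) for Mmp13 and the 10 measured genes on each side in chromosomal order (x axis, not to distance). The 2 red points, Mmp13 at -2.32 and Casp4 at -1.73, passed an adjusted p under 0.05. Pdgfd, at -1.29, did not pass.

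Beyond the calls, the 54 genes that passed the unadjusted threshold, differed by more than 0.75 and did not overlap were 32 higher (0.176% of all genes) and 22 lower (0.121%) in Mmp13-/- tissue. The largest positive difference was that of Ifi202b, an interferon-inducible gene of the Ifi200 family. It read 3.08, 3.44 and 2.89 on the WT arrays and 10.47, 10.71 and 10.21 on the Mmp13-/- arrays, a difference of 7.33 (SE 1.82, adjusted p = 0.75 from limma). The SE is wide because the fit shares the spread of the later days. With the 6 arrays fitted alone the SE was 0.18 and the adjusted p 1.69e-05 from limma. Its probe set belongs to a type that can match several transcripts of a family, so which Ifi200 member was read is uncertain.

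BC018473 had the largest negative difference, at 8.20, 9.32 and 8.36 in WT and 3.02, 2.92 and 3.23 in Mmp13-/- tissue, a difference of -5.57 (SE 1.23, adjusted p = 0.467 from limma, and 0.0016 with the 6 arrays alone). A second BC018473 probe set did not share this pattern. It was dim, at 1.95 to 2.13 on the 6 arrays, differed by -0.05 and overlapped. Hal, which encodes histidine ammonia-lyase, stood at 9.61, 9.22 and 8.70 in WT against 4.78, 4.76 and 7.71 (difference -3.43, SE 0.92, adjusted p = 0.925 from limma). Galc encodes a lysosomal galactosylceramidase, and its brightest probe set read 6.70, 3.53 and 3.15 in WT and 7.77, 7.86 and 8.12 in Mmp13-/- tissue (difference 3.46, SE 0.59, adjusted p = 0.0628 from limma). The 2 low WT values were the lowest of all 22 arrays, and the adjusted p from limma ranged from 1.79e-06 (without WT replicate 1) to 0.458 as single arrays were left out. With the 6 arrays alone it was 0.998. The other 2 probe sets of Galc did not share this pattern and differed by -0.37 and -0.17.

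Cadm1, a cell adhesion molecule of the immunoglobulin superfamily, was the third largest positive difference. It read 5.30, 4.87 and 7.48 in WT and 8.60, 8.70 and 8.85 in Mmp13-/- tissue (difference 2.83, SE 0.67, adjusted p = 0.69 from limma). All 3 of its other probe sets had positive differences too, 1.31 to 2.76, with no overlap. At the later days the difference was 1.5 and 2.21. Itgax, which encodes the integrin chain CD11c of macrophages and dendritic cells, stood out for its tight groups, with 9.42, 9.62 and 9.34 in WT and 10.33, 10.34 and 10.73 in Mmp13-/- tissue (difference 1.01, SE 0.18, adjusted p = 0.08 from limma). So did Mgst2, a microsomal glutathione transferase of leukotriene synthesis, at 5.47, 5.37 and 5.23 against 6.33, 6.44 and 6.57 (difference 1.09, SE 0.18, adjusted p = 0.0628 from limma). Neither gene overlapped between genotypes, and both were called when the variance prior was made robust and dependent on signal.

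The remaining positive differences among the 15 largest were Calml4 (1.62), the probe set annotated to the microRNA gene Mir1931 (1.41), Cd163 (1.37), Cep83os (1.13), Adamts4 (1.11), 2500002B13Rik (1.11), Dixdc1 (1.0), Dcstamp (0.99), Penk (0.98) and Marco (0.98). Among them, Cd163 takes up haemoglobin-haptoglobin complexes, Marco is a scavenger receptor, and Dcstamp is needed for the fusion of macrophages into giant cells. Adamts4 encodes an aggrecanase and Penk the precursor of enkephalins. A second Adamts4 probe set went the other way, with a difference of -0.48 and overlapping groups. A second Marco probe set differed by 0.01 and overlapped, and the other 3 of Dixdc1 differed by -0.17 to 0.17. The probe sets of Mir1931 and Cep83os were dim, with means over all arrays of 3.23 and 4.01, under the median of 4.22.

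Among the 15 largest negative differences were 2 serpins, inhibitors of serine proteinases. Serpina3n read 8.97, 9.33 and 8.92 in WT and 7.80, 7.78 and 7.66 in Mmp13-/- tissue (difference -1.33, SE 0.52, adjusted p = 1 from limma). Serpina1b, a member of the alpha-1-antitrypsin family whose near-identical copies the array may not separate, read 2.98, 6.74 and 5.33 in WT and stayed at 2.77 to 2.86 in Mmp13-/- tissue (difference -2.20, SE 0.82). WT replicate 1 sat with the Mmp13-/- arrays for this gene. Il6, the pro-inflammatory cytokine, read 7.46, 7.14 and 7.36 in WT and 6.48, 5.75 and 6.68 in Mmp13-/- tissue (difference -1.02, SE 0.41, adjusted p = 1 from limma), with no overlap. The others were Pck1 (-2.02), an enzyme of gluconeogenesis and of glycerol synthesis in fat cells, Nxpe4 (-1.88), Dppa3 (-1.68), Rnase2b (-1.43) of the eosinophil-associated ribonuclease family, Ifi213 (-1.36), Bco2 (-1.32), a carotenoid-cleaving enzyme, and Ifi209 (-1.0). Pck1 was highest on WT replicate 2 (6.60 against 3.76 and 4.2 on the other WT arrays), the array that also carried the highest mean of adipocyte markers. The other 2 Pck1 probe sets differed by -0.69 and -0.01 and overlapped. Second probe sets of Ifi209 (-0.50) and Serpina1b (-1.84) overlapped too, while that of Ifi213 (-1.19) did not. Serpina1b (3.53), Pck1 (3.01) and Rnase2b (3.79) had means over all arrays under the median of 4.22.

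**Figure D3:**
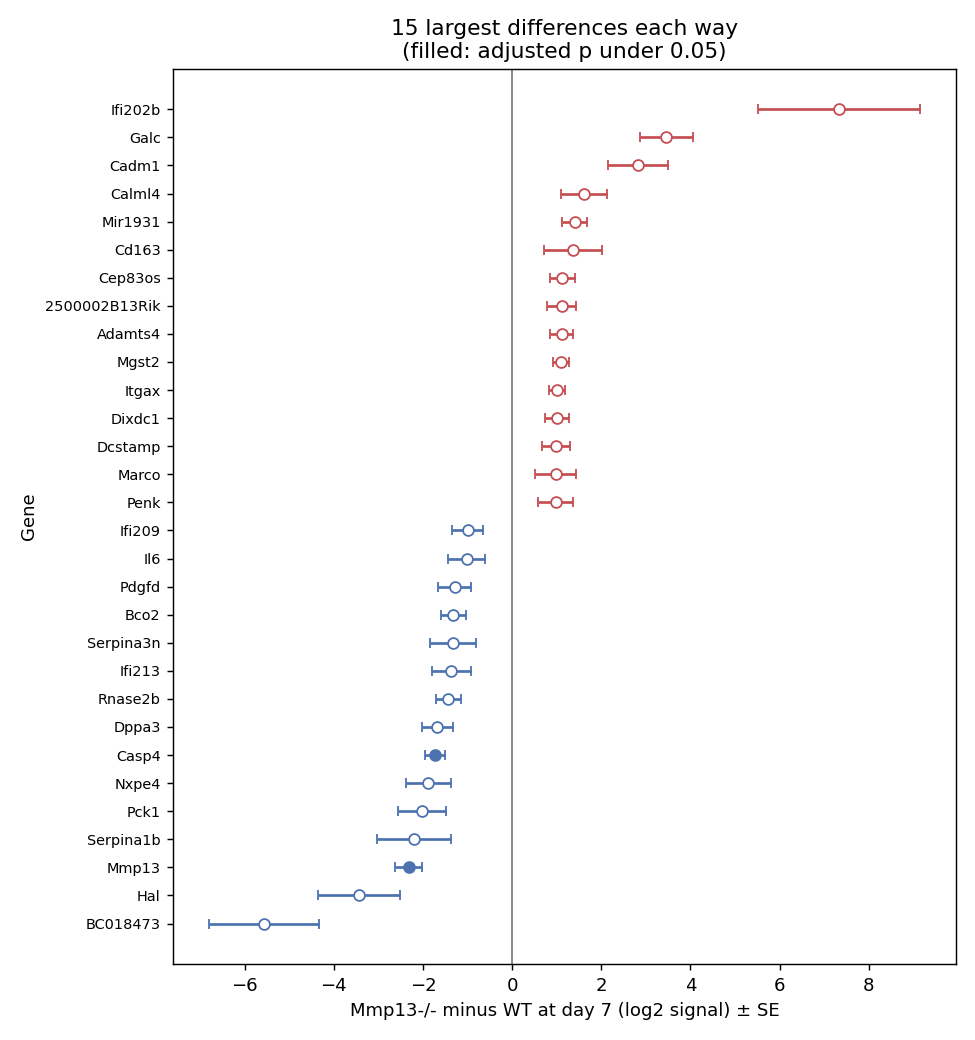
The 15 largest positive (red) and 15 largest negative (blue) differences between Mmp13-/- and WT at 7 d in log2 units (x axis, ± SE from limma) among genes (y axis) past the unadjusted threshold whose arrays did not overlap between genotypes. Filled points, Casp4 and Mmp13, passed an adjusted p under 0.05. The largest SE, 1.82, is that of Ifi202b.

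These genes were not spread evenly over the chromosomes. Of the 54, 24 (44.4%) had another of them within 20 measured genes along the chromosome, against 8.52% of the other 17978 genes with a position. They formed 8 groups. On chromosome 9 Cadm1, Nxpe4, Bco2, Dixdc1 and Ppp2r1b stood together within 35 measured genes, and Mmp13, Casp4 and Pdgfd within 7. On chromosome 1 Ifi202b, Ifi213, Ifi209 and Igsf9 stood within 20, and on chromosome 10 Mir1931, Hal, Fgd6 and Cep83os within 19. Signs were mixed in some groups: Cadm1 and Dixdc1 were higher and Nxpe4 and Bco2 lower in Mmp13-/- tissue, and Ifi202b was higher and its neighbours Ifi213 and Ifi209 lower. In others they were shared: Mmp13, Casp4 and Pdgfd were all lower, as were Serpina1b and Serpina3n. Smaller groups were Serpina1b with Serpina3n, Dppa3 with Cd163, Adamts4 with Pcp4l1, and Dapk2 with Aph1b.

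Some genes took 1 of 2 levels over the 22 arrays. A gap of at least 2 log2 units with 2 or more arrays on each side was left by 34 probe sets, of which 18 separated the 2 hybridization series exactly and 3 separated 7 d from the later days. The other 13 did neither, and in 4 of them, those of Ifi202b and BC018473, the unnamed 1457769_at and 1 annotated to several genes, the gap separated the genotypes of 7 d. Ifi202b was at 8.34 to 10.71 on 9 arrays and at 2.71 to 3.51 on the other 13. The high level was found on 3 of 3 Mmp13-/- and 0 of 3 WT arrays at 7 d, on 2 of 4 and 0 of 4 at 14 d, and on 2 of 4 arrays of each genotype at 21 d. BC018473 was high on 3 of 3 WT and 0 of 3 Mmp13-/- arrays at 7 d and on 3 of 4 arrays of each genotype at both later days. Neither gene separated the genotypes at 21 d.

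Hal was in its upper range on 3 of 3 WT and 1 of 3 Mmp13-/- arrays at 7 d, on 4 of 4 and 2 of 4 at 14 d, and on 4 of 4 and 3 of 4 at 21 d. Npy, which encodes neuropeptide Y, read 4.48, 8.48 and 8.76 on the WT arrays and 9.42, 9.66 and 9.93 on the Mmp13-/- arrays at 7 d (difference 2.43, SE 1.35, adjusted p = 1 from limma). WT replicate 1 alone was at the low level. At 14 d every Mmp13-/- array was at the high and every WT array at the low level, and at 21 d 3 WT and 2 Mmp13-/- arrays were high. The unnamed probe set 1457769_at read 2.32, 2.55 and 2.72 in WT against 6.92, 6.18 and 6.83 (difference 4.11, SE 0.81, adjusted p = 0.242 from limma, and 0.0016 with the 6 arrays alone). It was high on all 4 Mmp13-/- arrays and no WT array at 14 d.

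**Figure D4:**
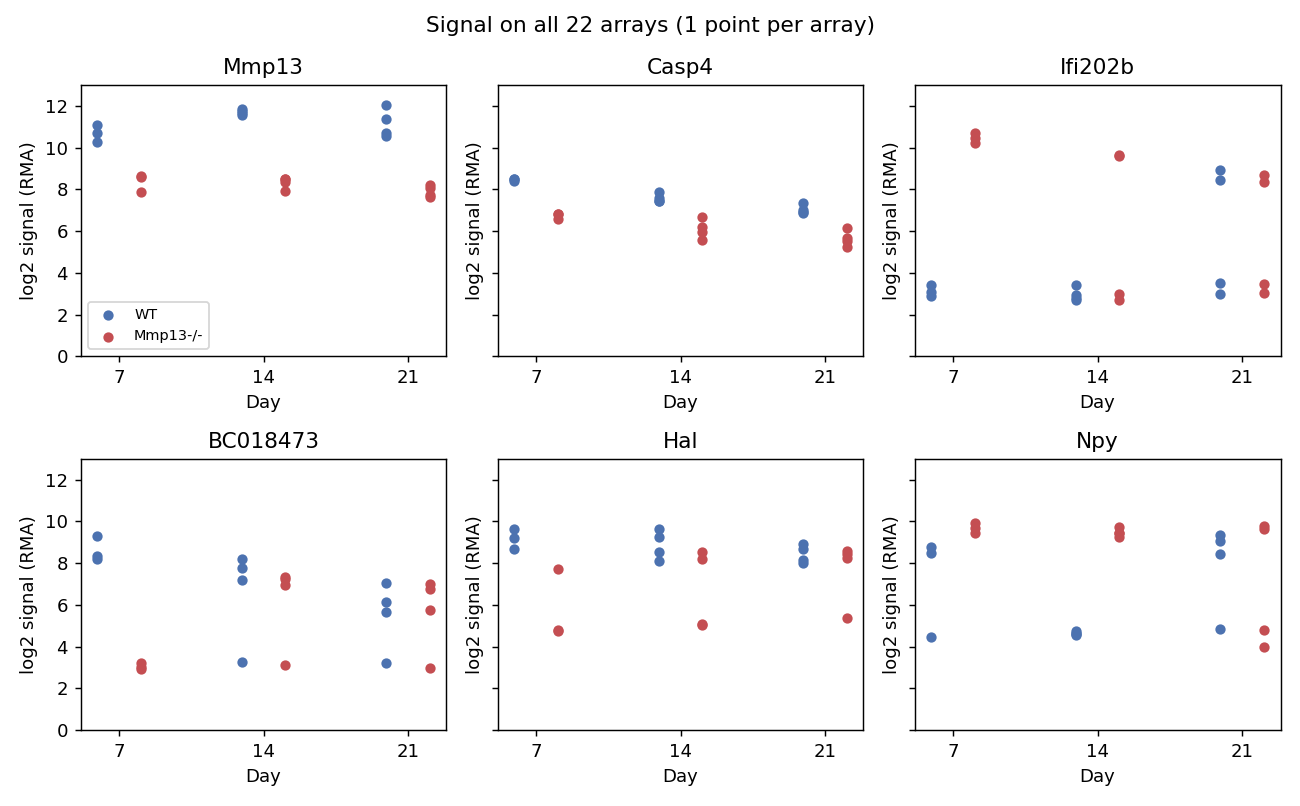
RMA log2 signal (y axis) of 6 genes on all 22 arrays by day (x axis), WT in blue and Mmp13-/- in red, 1 point per array. Mmp13 and Casp4 separate the genotypes at each day, while Ifi202b, BC018473 and Npy each take a high or a low level on arrays of both genotypes. Hal is low on 5 arrays, all Mmp13-/-.

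Of the 17 other MMP genes, none passed the adjusted threshold. Their median difference was 0.06, with 11 positive and 5 negative. Mmp12, the macrophage elastase and the brightest of the genes near Mmp13, read 12.81, 12.27 and 12.38 in WT and 12.73, 12.74 and 12.78 in Mmp13-/- tissue (difference 0.26, SE 0.12). Mmp3, or stromelysin-1, read 8.02, 9.03 and 7.11 in WT and 8.36, 8.92 and 9.18 in Mmp13-/- tissue (difference 0.77, SE 0.37). Both overlapped between genotypes. Mmp8, the neutrophil collagenase, which cleaves the same fibrillar collagens as MMP-13, differed by -0.55 (SE 0.37) and overlapped. Timp3, an inhibitor of MMPs and ADAM proteinases that binds to matrix, read 6.65, 6.76 and 6.65 in WT and 7.23, 7.42 and 7.77 in Mmp13-/- tissue (difference 0.79, SE 0.22, adjusted p = 1 from limma). Its genotypes did not overlap and its other 3 probe sets had the same sign. Of 23 ADAM and ADAMTS genes the median was -0.03, with Adamdec1 at -0.94 (SE 0.30, overlapping) at the negative end and Adamts4 at the positive end. Serping1, the C1 inhibitor, was the serpin with the smallest unadjusted p, at 10.36, 10.60 and 10.44 in WT and 10.89, 10.98 and 10.91 in Mmp13-/- tissue (difference 0.46, SE 0.15).

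Genes of the interstitial matrix differed little. The 18 collagens outside basement membranes had a median of 0.09 (-0.04 without WT replicate 1), the 11 small leucine-rich proteoglycans one of -0.07, and the 15 collagen-processing enzymes one of -0.01. Aspn (asporin) and Lum (lumican), proteoglycans that bind collagen fibrils, differed by -0.81 (SE 0.25) and -0.37 (SE 0.17) and overlapped. Ltbp2, a protein of elastic microfibrils, read 7.79, 7.94 and 8.03 in WT and 7.27, 7.47 and 7.56 in Mmp13-/- tissue (difference -0.49, SE 0.17) with no overlap. Of 14 integrins, 10 had positive differences (median 0.04), with Itga3, a laminin receptor chain, at 0.42 (SE 0.12), Itga1, a collagen receptor chain, at 0.51 (SE 0.21, and 0.24 without WT replicate 1) and Itgb8, which binds latent TGF-beta, at 0.66 (SE 0.29). Itga3 and Itgb8 did not overlap, but the other 2 Itga3 probe sets differed by 0 and -0.17 and overlapped.

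Cytokine and chemokine genes showed no common direction. The median difference was -0.07 over 21 interleukin and TNF cytokines, 0 over 16 CC chemokines and 0.01 over 15 CXC chemokines, and the adjusted threshold was passed by none. Il33, an alarmin of fibroblasts and endothelium, was opposite in sign to Il6, at 8.98, 9.02 and 8.71 in WT and 9.33, 10.03 and 9.54 in Mmp13-/- tissue (difference 0.73, SE 0.23, adjusted p = 1 from limma), with no overlap. Cxcl12, a chemokine of stromal cells, differed by 0.76 (SE 0.22), and Cxcl1, a neutrophil attractant, by -0.55 (SE 0.22), and both overlapped. Another Cxcl1 probe set differed by -0.74 (SE 0.31) with no overlap, and the remaining one by -0.23 with overlap. Ccl7 and Ccl4, which attract monocytes, differed by -0.41 (SE 0.30) and -0.36 (SE 0.22), and Il1b and Il1a by -0.22 (SE 0.37) and 0.16 (SE 0.30), again with overlap. Among 19 acute phase genes the highest differences were those of Saa1 (1.0, SE 0.41) and Lbp (0.84, SE 0.37), and for Saa1 a single Mmp13-/- array (5.77 against 3.49 and 3.70 on the others) carried most of it. Of 13 complement genes 10 had negative differences (median -0.10), while the 3 that passed the unadjusted threshold, C1ra (0.42, SE 0.13), C2 (0.55, SE 0.20) and Cfi (0.28, SE 0.12), had positive ones. Cfi was dim, at 3.40 to 3.95 on the 6 arrays.

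Interferon-stimulated genes are induced by type I interferon, and many of them carry a promoter element known as ISRE. Of 28 measured members of a list of such genes, 25 had lower means in Mmp13-/- tissue (51% of all genes were negative), and the median was -0.27. On single arrays the list mean was 9.57, 9.63 and 9.68 in WT and 9.36, 9.67 and 9.14 in Mmp13-/- tissue. Replicate 2 of Mmp13-/- thus lay within the WT range, and the median was -0.36 without it but -0.09 without Mmp13-/- replicate 3. No member passed the adjusted threshold and 1 passed the unadjusted one (2.99% of all genes). In 6 of 28 the Mmp13-/- arrays were all below WT (4.33% of all genes). Mx2, an antiviral GTPase, read 6.44, 6.90 and 6.75 in WT and 5.95, 6.42 and 6.21 in Mmp13-/- tissue (difference -0.50, SE 0.19). Stat2 differed by -0.41 (SE 0.20), Oas1a by -0.27 (SE 0.14) and Oasl1 by -0.48 (SE 0.26), all with no overlap. Other animals gave like values for the list at 14 d (median -0.25, 26 negative) and 21 d (median -0.23, 24 negative). Parts of the promoters of 3 members are printed because they hold the letters of the ISRE, in capitals, in the 250 bases before the start of the gene, and because, among members with a match that ends before the start, these had the smallest unadjusted p. They are printed 5′ to 3′ on the strand of the gene, from RefSeq on GRCm38.p6.
Stat2 (chr10:128270248-128270315, + strand): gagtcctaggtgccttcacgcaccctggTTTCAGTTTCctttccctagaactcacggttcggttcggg
Oas1a (chr5:120907526-120907575, - strand): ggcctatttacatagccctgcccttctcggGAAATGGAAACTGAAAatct
Rsad2 (chr12:26456533-26456602, - strand): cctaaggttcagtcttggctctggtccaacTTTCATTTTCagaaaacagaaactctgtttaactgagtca
The letters searched were GAAA, 2 bases of any kind and GAAA again, on either strand, in windows from 250 bases before to 50 bases after the start. In the Oas1a window 2 overlapping matches run together. Of the 21 list members with such a window, 13 (61.9%) held the letters, against 3.99% of 27025 genes. Rsad2, which encodes viperin, an inhibitor of viral replication, differed by -0.30 (SE 0.27) and overlapped.

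The Ifi200 family, whose members bind DNA and are also induced by interferon, did not move as a block. Beside Ifi202b, Ifi203 read 6.06, 6.32 and 6.40 in WT and 5.75, 5.79 and 5.77 in Mmp13-/- tissue (difference -0.49, SE 0.14, adjusted p = 1 from limma) with no overlap. Ifi209 was at 10.69, 10.78 and 10.81 in WT and 9.74, 10.11 and 9.44 in Mmp13-/- tissue (difference -1.0, SE 0.34). Ifi213 differed by -1.36 (SE 0.44). Cross-reaction within this family was not tested.

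Genes of the cell cycle had higher means in Mmp13-/- tissue, by a small amount. Of 29 measured members 27 had positive differences (47.8% of all genes), and the median was 0.16. The list mean was 6.70, 6.82 and 6.78 on the WT arrays and 7.00, 6.89 and 7.00 on the Mmp13-/- arrays, so every Mmp13-/- array lay above every WT array. The median stayed between 0.15 and 0.20 as single arrays were left out. Separated list means were not particular to this list. Integrins stood at 6.37 to 6.48 in WT and at 6.52 to 6.63 in Mmp13-/- tissue. Serpins separated the other way (7.07 to 7.16 in WT, 6.84 to 6.96 in Mmp13-/- tissue), as did circadian and glucocorticoid-responsive genes. Neuropeptides and the Ifi200 family separated as well. Of the 29 cell cycle genes 6 were higher at the unadjusted threshold (1.88% of all genes) and 1 lower (1.11%). In 8 of 29 the Mmp13-/- arrays were all above WT (4.44% of all genes). None passed the adjusted threshold. Birc5 (survivin), a subunit of the chromosomal passenger complex, read 6.62, 6.77 and 6.74 in WT and 7.27, 7.16 and 7.35 in Mmp13-/- tissue (difference 0.55, SE 0.19). Top2a, the topoisomerase of dividing cells, differed by 0.41 (SE 0.15), Bub1, a spindle checkpoint kinase, by 0.48 (SE 0.19) and Cdc20, an activator of the anaphase-promoting complex, by 0.34 (SE 0.14), each with no overlap. The 1 lower gene was Cdkn1a, which encodes the cell cycle inhibitor p21 (-0.27). At 14 d and 21 d the list medians were 0.06 and 0.04, with 17 of 29 positive at each day.

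A list of iron and haem genes, which also held the metallothioneins, had higher means in Mmp13-/- tissue. Of 17 measured 14 were positive (47.8% of all genes), with a median of 0.31 (0.21 to 0.46 without single arrays). The list mean was 8.15, 8.21 and 7.95 in WT and 8.38, 8.62 and 8.41 in Mmp13-/- tissue. These means did not overlap, which was also seen in other lists. At the unadjusted threshold 5 were higher (1.88% of all genes) and none lower (1.11%). Of these 5, Mt3 and Mt1 are metallothioneins, which bind zinc and copper, and the other 3 were Steap4, a metalloreductase, Slc48a1, a haem transporter of endosomes, and Cd163, the haemoglobin receptor. Steap4 read 7.95, 8.79 and 8.73 in WT and 9.01, 8.84 and 9.45 in Mmp13-/- tissue (difference 0.61, SE 0.21). Its difference was 0.34 without WT replicate 1 and -0.67 at 14 d, and its second probe set (0.38) overlapped. Mt1 read 10.44, 10.39 and 10.62 in WT and 11.01, 11.22 and 10.84 in Mmp13-/- tissue (difference 0.54, SE 0.20). On these probe sets neither gene overlapped, while Mt3 (1.05, SE 0.32) did. A second Mt1 probe set differed by -0.12 and overlapped. The list medians at the later days were -0.02 and 0.04. Markers of red cells had a median difference of -0.03.

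Immediate early genes, transcription factors and phosphatases that respond within minutes to stimulation, had negative differences in 13 of 16, with a median of -0.13 (-0.18 to -0.09 without single arrays). Over all genes 51% were negative. Fos, a subunit of AP-1, read 10.69, 10.45 and 10.23 in WT and 10.13, 9.93 and 9.95 in Mmp13-/- tissue (difference -0.45, SE 0.17), and Dusp1, a MAP kinase phosphatase, differed by -0.27 (SE 0.17). Neither gene overlapped between genotypes. Jun, with a smaller unadjusted p than Dusp1, differed by -0.23 (SE 0.12) and overlapped. Of the 16 genes 1 was lower at the unadjusted threshold (1.11% of all genes) and none higher. At 21 d the list had a median of 0.31. Among 24 genes of apoptosis and inflammatory caspases the median was -0.01, and Casp4 was the only one called. Of the others Pmaip1 (Noxa), a BH3-only inducer of apoptosis, differed by -0.60 (SE 0.23) and Casp8, the initiator caspase of death receptors, by -0.24 (SE 0.10), with no overlap in either.

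Genes of blood vessels had higher means in Mmp13-/- tissue, but the size of the difference rested on WT replicate 1. Of 14 endothelial markers 12 were positive, with a median of 0.62, and of 8 pericyte markers all 8, with a median of 0.65. Over all genes 47.8% were positive. On single arrays the endothelial mean was 5.69, 7.25 and 6.61 in WT and 6.71, 7.09 and 7.25 in Mmp13-/- tissue, and the pericyte mean 5.25, 6.76 and 6.58 against 6.49, 6.82 and 7.08. Without WT replicate 1 the medians were 0.12 and 0.16. Cdh5, the adhesion molecule of endothelial junctions, illustrates this with 4.59, 6.95 and 6.08 in WT and 6.31, 6.82 and 7.17 in Mmp13-/- tissue (difference 0.89, SE 0.37). Pdgfrb, the receptor that recruits pericytes, read 8.08, 9.54 and 9.19 in WT and 9.42, 9.84 and 10.25 in Mmp13-/- tissue (difference 0.90, SE 0.33). The basement membrane collagens Col4a1 (0.84, SE 0.35) and Col4a2 (0.90, SE 0.37), the growth factor carrier Igfbp3 (1.07, SE 0.39) and the apelin receptor Aplnr (1.06, SE 0.40) were lowest on the same WT array and overlapped between genotypes on the other arrays. Without WT replicate 1 the differences were 0.25 for Cdh5, 0.47 for Pdgfrb, 0.20 for Col4a1, 0.22 for Col4a2, 0.34 for Igfbp3 and 0.48 for Aplnr. In bulk tissue, fewer cells of a type and less RNA per cell cannot be told apart. At 14 d and 21 d the endothelial medians were -0.27 and -0.37, and the pericyte medians -0.28 and -0.25. The difference between days was not called for any gene of these lists.

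A smaller set of vessel and growth factor receptor genes did not depend on that array to the same extent. Efnb2 (ephrin-B2), a marker of arterial endothelium and pericytes, read 6.72, 6.77 and 6.68 in WT and 7.07, 7.22 and 7.45 in Mmp13-/- tissue (difference 0.52, SE 0.14, adjusted p = 0.925 from limma). Flt1, a VEGF receptor, differed by 0.49 (SE 0.17) and the Notch ligand Jag1 by 0.32 (SE 0.14), with no overlap in either. Pdgfra, the PDGF receptor of fibroblasts, read 9.41, 9.49 and 9.40 in WT and 9.81, 9.76 and 10.04 in Mmp13-/- tissue (difference 0.44, SE 0.15). Met, the receptor of hepatocyte growth factor, read 9.08, 8.91 and 9.14 in WT and 9.57, 9.50 and 9.89 in Mmp13-/- tissue (difference 0.61, SE 0.17), and differed by 0.48 at 14 d and 0.51 at 21 d. Fgfr1 (0.31, SE 0.11), Egfr (0.43, SE 0.15) and Igf1r (0.35, SE 0.13), receptors of FGF, EGF and IGF, also had Mmp13-/- arrays that all lay above WT. Flt1 and Jag1 also had positive differences at 14 d and 21 d. Efnb2 (-0.20 and -0.48) and Egfr (-0.17 and -0.34) had negative ones at both days. Pdgfra (-0.33), Fgfr1 (-0.14) and Igf1r (-0.06) were negative at 14 d and positive at 21 d. Without WT replicate 1 these 8 genes differed at 7 d by 0.28 (Fgfr1) to 0.63 (Met). None passed the adjusted threshold with or without this array. Their other probe sets agreed less. Those of Egfr (-0.06 to 0.35), Fgfr1 (0.10 and 0.21), Pdgfra (0.23 and 0.28), Jag1 (0.15 and 0.33) and Met (0.36) all overlapped. Some of those of Efnb2 (-0.05 to 0.26), Igf1r (-0.07 to 0.44) and Flt1 (0.40 to 0.63) overlapped. Over the 17 ligands and receptors of the FGF, HGF, EGF and midkine families the median was -0.08.

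**Figure D5:**
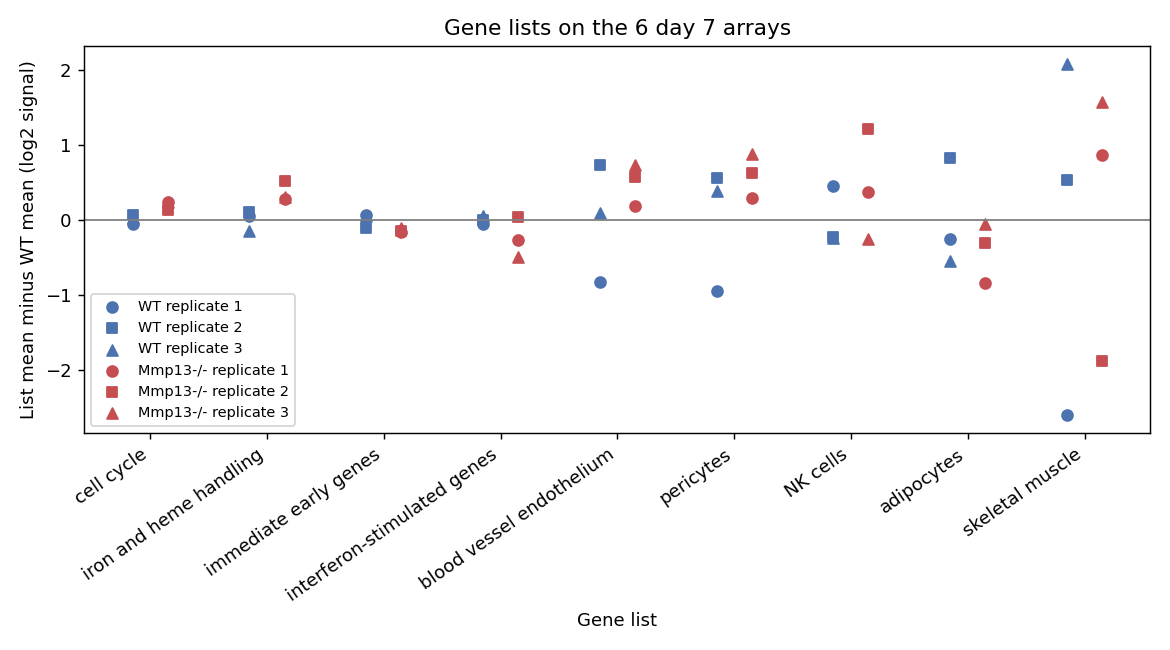
Mean log2 signal of 9 gene lists (x axis) on each day 7 array, relative to the mean of the 3 WT arrays (y axis), WT in blue and Mmp13-/- in red, with the marker shape giving the replicate. The cell cycle and iron lists separate the genotypes, as do some lists not shown. The endothelial and pericyte lists are lowest on WT replicate 1, and the skeletal muscle list ranges over both genotypes from 5.10 to 9.78 in signal.

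Leukocyte markers differed little as lists. The median was -0.02 over 16 macrophage genes, -0.04 over 15 neutrophil genes, -0.01 over 11 dendritic cell genes and -0.04 over 11 T cell genes. Within them Cd163 (WT 6.32, 5.62 and 5.21, Mmp13-/- 7.16, 7.36 and 6.74), Marco (WT 5.04, 3.98 and 4.81, Mmp13-/- 5.21, 5.71 and 5.84) and Itgax stood above WT on all 3 Mmp13-/- arrays. Dcstamp read 6.91, 5.86 and 5.68 in WT and 7.05, 7.08 and 7.28 in Mmp13-/- tissue (difference 0.99, SE 0.31). In the same list of genes of giant cells and alternatively activated macrophages, 9 of 11 were positive with a median of 0.21, which was 0.02 without WT replicate 3. The list mean on WT replicate 1 (8.51) lay above all Mmp13-/- arrays (8.20 to 8.44). NK cell markers were positive in 10 of 11 with a median of 0.46, but the list mean was 6.2 on Mmp13-/- replicate 2 against 4.74 and 5.36 on the other Mmp13-/- arrays, and the median was 0.04 without it. Adipocyte markers were negative in 9 of 11 with a median of -0.09, and the list mean was 7.76 on WT replicate 2 and 6.10 to 6.88 on the other arrays, so that the median was 0.12 without WT replicate 2.

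Metabolic and stress genes gave single differences rather than shifts of whole lists. Slc7a2, an arginine transporter of macrophages and fibroblasts, read 6.57, 6.00 and 6.97 in WT and 7.26, 7.38 and 7.40 in Mmp13-/- tissue (difference 0.83, SE 0.20, adjusted p = 0.69 from limma), and its other 3 probe sets had the same sign. Gpt2, a mitochondrial alanine aminotransferase, differed by 0.93 (SE 0.34), by 1.02 at 14 d and by 1.42 at 21 d. Chac1, a glutathione-degrading enzyme of the amino acid stress response, and Slc3a2, the heavy chain of amino acid transporters, differed by -0.50 (SE 0.21) and -0.24 (SE 0.11). None of these 4 genes overlapped between genotypes. The medians were -0.04 over 20 amino acid stress genes, 0.01 over 22 lipid genes and 0.06 over 23 genes of glycolysis and the hypoxia response, of which Adm, a peptide that widens vessels, was the one past the unadjusted threshold (0.54, SE 0.24).

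The differences of 7 d were also read in the animals of the later days. Those arrays entered the choice of the 54 genes through the shared spread and the choice of the brightest probe set, but their genotype differences did not. Of these genes 47 (87%) had the same sign at 14 d, against 52.3% of all genes, and 40 (74.1%) at 21 d, against 51.1%. Both days shared the sign of 7 d for 37 of them. Whether the genotype difference changed between days was tested for every probe set. None passed the adjusted threshold in limma for 7 d against 14 d (1032 at an unadjusted p under 0.05, 2.29%) or for 7 d against 21 d (2482, 5.51%). A missed threshold does not show that the differences were equal, and with 3 arrays per genotype at 7 d the smallest p of an exact two-sided permutation test for a single gene would be 0.1.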

How the data were processed

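Total RNA of granulation tissue was hybridized to Affymetrix arrays of the mouse genome. The authors normalized the arrays with RMA, and the deposited values are log2 signals per probe set (45101, with 64 controls left out here). No RMA version is stated, nor whether the arrays of the 2 hybridization series were normalized as 1 set. RMA shrinks differences of dim probe sets and of very bright ones, and the number of arrays limits the precision.

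All 22 arrays were fitted with limma 3.58.1 in R 4.3.3, with 6 groups of genotype by day and a term for the hybridization series (15 residual and 4.57 prior degrees of freedom), and the Mmp13-/- minus WT contrast of 7 d was taken. P-values were adjusted by Benjamini-Hochberg over 45037 probe sets, and a gene was called at an adjusted p under 0.05. SE is the moderated standard error. Because the fit shares 1 spread over all days, a gene that varies at later days has a wide SE at 7 d. No filter on signal was applied. The methods of the study name linear modelling of each time point. The limit of 0.75 on the log2 difference is descriptive. No columns of values were left unused. The fit was tested on simulated data.

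Gene names come from the platform annotation: 34945 probe sets have 1 gene, 932 several and 9160 none. A gene is represented by its brightest probe set over all arrays (18193 genes), and gene order comes from a RefSeq table of GRCm38.p6, used for order only. Named are Mmp13, called probe sets, the 15 largest differences each way among genes past the unadjusted threshold with a difference over 0.75 and no overlap, several of the genes the study names at 7 d, the neighbours of Mmp13, and, for each list, at most the 4 genes of smallest unadjusted p. Rsad2 and Cdkn1a were named after their values were seen. The 57 gene lists (37 of pathways, 20 of cell types), the members and the tests were chosen with earlier results of these data known. The lists are described by counts and medians, with no test. The medians of all lists not named in the text lay between -0.11 and 0.30. Alternatives were the 7 d arrays alone, hybridization series 1 alone, no series term, dim probe sets left out, median-centred arrays, a robust and signal-dependent prior, replicate blocks, and each array left out.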

Additional observations from a re-analysis of the deposited data

How the results depend on the processing

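Arrays of 7 d with the same replicate number deviated from their group means with correlations of 0.16, -0.16 and 0.50, so the numbers were not taken as pairs. With a replicate block 6 probe sets were called, of which 3 were among the 4 reported, 1119 passed the unadjusted threshold and 156 also differed by more than 0.75. Of the arrays, 1 of 3 WT and 2 of 3 Mmp13-/- had deviations that correlated best with their own number.

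The count of called probe sets was 7 with the 6 arrays of 7 d alone (2 shared with those reported), 11 with hybridization series 1 alone, 2 without dim probe sets, 7 with a robust and signal-dependent prior, and 1 to 8 without single arrays (1 without Mmp13-/- replicate 3, 8 without WT replicate 1). The unadjusted count was 1624 with the 6 arrays alone, 2562 with series 1 alone and 714 to 1175 without single arrays. Probe sets that also differed by more than 0.75 numbered 137 to 261 without single arrays, the most without WT replicate 2, and 236 without Mmp13-/- replicate 1. The tests between days gave 0 to 2 calls for 14 d and 0 to 3 for 21 d without single arrays (3 without WT replicate 1, 1 without WT replicate 2). Mmp13 lost its call with the 6 arrays alone (-2.32) and ranged from -2.53 to -2.07 without single arrays. Il1a ranged from -0.01 (without WT replicate 3) to 0.36 without single arrays. The cause of these changes was not tested. Casp4 was called in each alternative. Of the other values of named genes under alternatives, 1498 kept their direction and side of the threshold, 10 passed it only there and 9 lost it. Of list medians, 437 moved by less than the spread between replicates and 19 by more. Dim probe sets carry little signal over background, which limits their differences.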
